A study of Mus musculus with 2 samples.

Results

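Glucose metabolism in the mouse cornea and limbus was described through 33 of the 32285 genes counted, chosen by symbol as the enzymes and transporters of glycolysis, lactate export, the entry of pyruvate into mitochondria and the pentose phosphate pathway. All 33 symbols were found. The cells came from 1 uninjured wild-type mouse (wt, treatment control) and 1 wild-type mouse whose eye was injured with sodium hydroxide (NaOH), a model of alkali burn. The tissue was the cornea with the limbus at its border, freed of most of the conjunctiva, and the cells were profiled in 10x Genomics droplet libraries. The sources used here do not give the time after injury, the mice's age and sex or the number of eyes used. With 1 library per condition, no difference was tested and none has a replicate behind it. The study's title asks which signalling networks an alkali burn stimulates.

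Glycolysis splits glucose into pyruvate in the cytosol and yields ATP without oxygen, and lactate dehydrogenase together with monocarboxylate transporters lets cells discard the pyruvate as lactate. The pentose phosphate pathway branches off after hexokinase. Its oxidative enzymes make NADPH, which keeps glutathione reduced, and its non-oxidative enzymes, transketolase and transaldolase, carry sugar phosphates back to glycolysis. In the mammalian cornea, transketolase is also stored in such amounts that it counts among the corneal crystallins, the soluble proteins thought to help keep the tissue clear.

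Transcripts were counted by UMI (unique molecular identifier, a tag that marks each captured molecule). Levels are given in CPM, the UMIs of a gene after scaling its cell class to a total of 1000000 UMIs, with exact Poisson 95% intervals in parentheses. A member is called higher or lower when the injured level over the uninjured level is at least 2-fold in that direction and the exact 95% interval of the ratio excludes 1. A member was measured in a class where it had at least 20 UMIs over both libraries. The intervals cover counting error only and hold nothing of the variation between mice. Counting did not correct for how well a transcript is captured, so levels are compared between cells and not between genes.

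The promoters below are shown because their genes stood out in both large cell classes: phosphoglycerate kinase Pgk1, the lactate transporters Slc16a1 and Slc16a3 and the phosphofructokinase Pfkp were higher in the injured epithelium and in the injured stroma (there, Pfkp and Slc16a3 on few UMIs), and transketolase Tkt was lower in both. Each window holds 300 bases of GRCm38.p6 from RefSeq, 5′ to 3′ on the gene's strand, ending 50 bases past the start that RefSeq gives the gene: Pgk1 at chrX:106186850-106187149 (plus), Slc16a1 at chr3:104638414-104638713 (plus), Slc16a3 at chr11:120948817-120949116 (plus), Pfkp at chr13:6648722-6649021 (minus) and Tkt at chr14:30548881-30549180 (plus). For Slc16a3 and Tkt the GENCODE annotation begins the gene further upstream, at 120948480 and 30548359, so their windows lie inside that annotation's gene. Capitals mark ACGTG or GCGTG on either strand, the letters at the core of the hypoxia response element.
Pgk1: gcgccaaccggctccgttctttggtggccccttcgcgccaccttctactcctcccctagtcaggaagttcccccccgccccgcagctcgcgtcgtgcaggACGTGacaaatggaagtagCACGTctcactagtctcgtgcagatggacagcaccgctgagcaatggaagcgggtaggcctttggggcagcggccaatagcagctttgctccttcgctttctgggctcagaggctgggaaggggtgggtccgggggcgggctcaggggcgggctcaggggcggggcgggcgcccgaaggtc
Slc16a1: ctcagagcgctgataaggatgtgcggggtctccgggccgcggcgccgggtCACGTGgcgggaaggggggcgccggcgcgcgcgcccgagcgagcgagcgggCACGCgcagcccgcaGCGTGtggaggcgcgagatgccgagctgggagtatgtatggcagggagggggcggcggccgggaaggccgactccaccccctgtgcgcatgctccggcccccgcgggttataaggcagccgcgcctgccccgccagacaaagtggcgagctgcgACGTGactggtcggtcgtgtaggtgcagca
Slc16a3: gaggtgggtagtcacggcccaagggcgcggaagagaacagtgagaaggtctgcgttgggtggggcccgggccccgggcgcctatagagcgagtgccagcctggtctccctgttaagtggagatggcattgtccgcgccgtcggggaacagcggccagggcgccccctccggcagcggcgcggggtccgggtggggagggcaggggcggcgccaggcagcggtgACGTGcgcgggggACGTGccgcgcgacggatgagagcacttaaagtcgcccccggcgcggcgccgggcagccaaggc
Pfkp: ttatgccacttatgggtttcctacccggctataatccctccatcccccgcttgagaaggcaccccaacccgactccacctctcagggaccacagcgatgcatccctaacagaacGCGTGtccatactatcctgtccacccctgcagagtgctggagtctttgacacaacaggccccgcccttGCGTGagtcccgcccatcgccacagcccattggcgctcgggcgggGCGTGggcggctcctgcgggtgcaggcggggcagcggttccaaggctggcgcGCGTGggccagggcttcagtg
Tkt: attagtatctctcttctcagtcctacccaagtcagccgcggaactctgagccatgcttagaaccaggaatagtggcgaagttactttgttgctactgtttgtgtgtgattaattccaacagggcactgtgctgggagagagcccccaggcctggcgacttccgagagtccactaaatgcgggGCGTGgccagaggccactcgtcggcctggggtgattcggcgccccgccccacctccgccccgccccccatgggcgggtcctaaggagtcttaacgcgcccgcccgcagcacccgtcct

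Of the 33 members, 32 had a promoter in the RefSeq table, Slc2a3 being the exception. ACGTG on either strand was present in 16 of these 32 members and in 19.6% of all 32851 promoters of that length, and GCGTG in 22 members and 32.4% of promoters. Members with several listed promoters count here if any of them holds the letters, 19 and 27 of their 46 promoters for ACGTG and GCGTG. The palindrome CACGTG, which also counts as ACGTG on each strand, was found in 4 members (7.15% of promoters), and TGACNNNGC, the core letters of the antioxidant response element, in 5 members (12.4%). Counted by promoter, 4 and 5 of the 46 held these letters. In the windows printed above, Pgk1 holds 2 ACGTG and no GCGTG, Slc16a1 holds 3 and 2, Slc16a3 holds 2 and 0, Pfkp holds 0 and 4, and Tkt holds 0 and 1. These are matches of letters only.

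After filtering and removal of likely doublets, 6743 uninjured and 8368 injured cells were analysed, with 77213099 and 96887211 UMIs and medians of 10152 and 10606 UMIs per cell. The libraries shared 15 cell barcodes, 13 of them among the analysed cells. Clusters were named from marker genes, with the 33 members kept out of the genes used for clustering. Epithelial-like cells numbered 5715 and 5789 (uninjured and injured), stromal-like cells 459 and 802, mural-like cells 58 and 86, Schwann-like cells 54 and 97, vascular endothelial-like cells 44 and 211, macrophage or monocyte-like cells 15 and 346, and neutrophil-like cells 2 and 1017. Most epithelial and stromal clusters came nearly all from 1 library. The uninjured epithelium was mainly clusters 1, 2, 4, 9 and 15, with corneal markers leading, and the injured epithelium was mainly clusters 0, 6, 8 and 11, with limbal markers leading, and cluster 5, with conjunctival markers leading. Summed over the class, the 6 corneal state markers, which include Krt12, stood at 41119 CPM uninjured and 463 CPM injured. A difference between the classes is therefore also a difference between these cell states, and the design cannot tell state, library and injury apart.

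Injured epithelium carried more transcript of most glycolytic enzymes by amounts under 2-fold, more of 2 phosphofructokinase genes, Pgk1 and both lactate transporters by larger amounts, and far less Tkt. Of 31 measured members 5 were higher (13.9% of all 14694 measured genes were) and 1 was lower (11.4% of all genes), so the share of members called lies close to that of all genes in the upward direction and under it in the downward direction. The middle of the list lay above that of all genes: the 24 measured glycolysis, lactate and pyruvate members had a median log2 ratio of 0.55 (0.23 to 0.90, from the order of the members) against 0.02 for all genes, with 20 ratios above 1. The 7 pentose phosphate members had a median of -0.18 (-2.91 to 0.43), and 5 of their ratios were below 1. The intervals of medians, here and in stroma, are nominal 95% intervals that treat the members as independent, which they are not. They hold neither counting error nor the variation between mice. The set of all genes was not matched to the members by level.

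**Figure D1:**
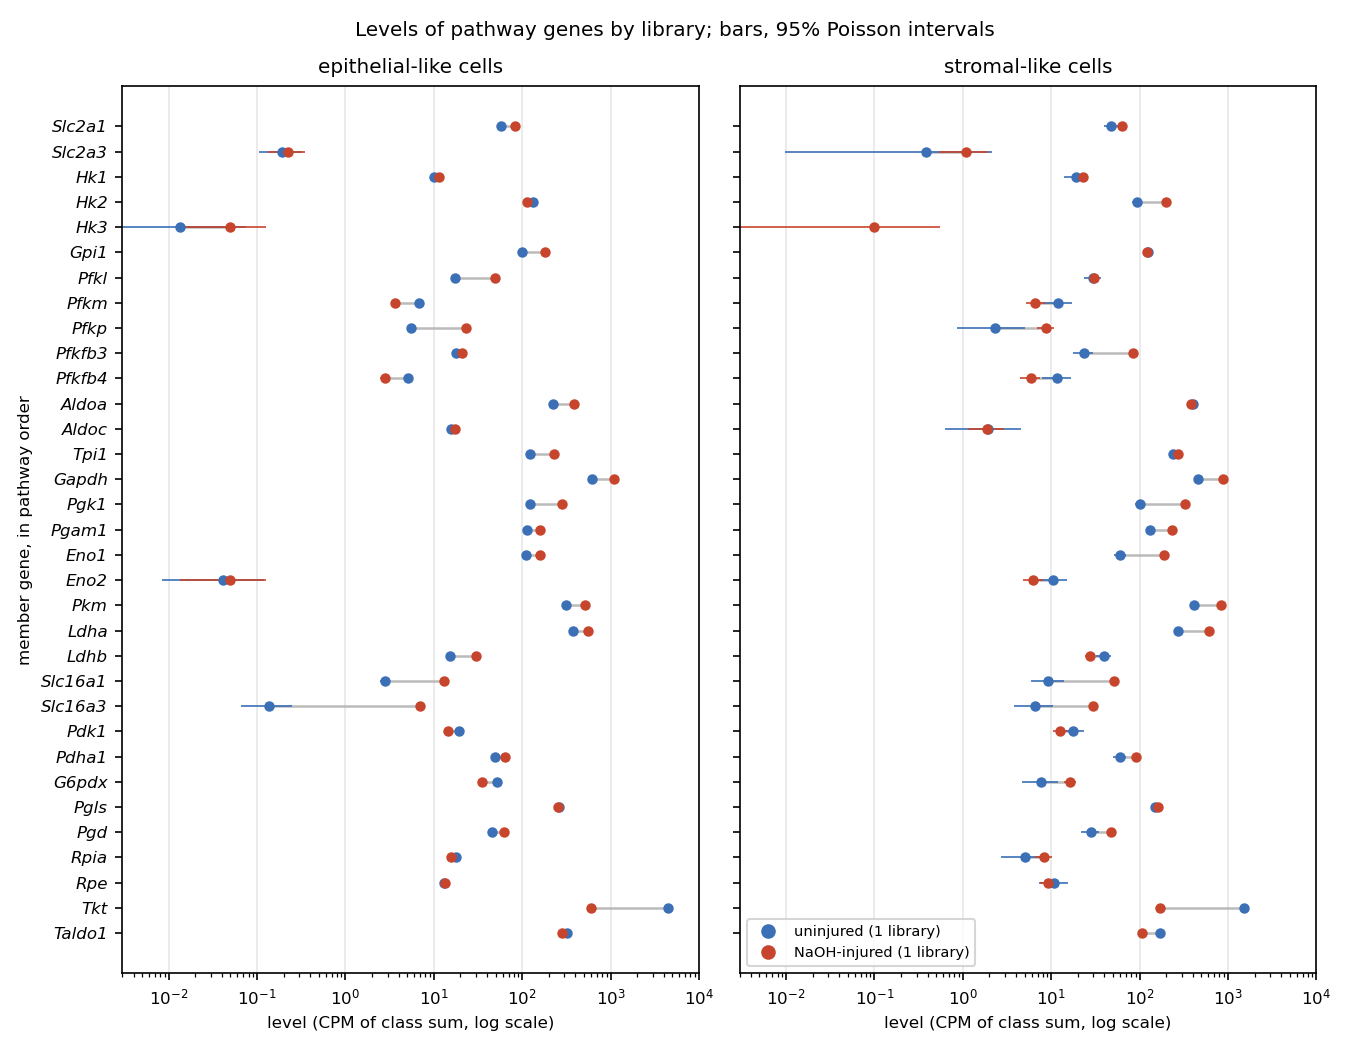
Level of each member in epithelial-like (left) and stromal-like (right) cells, in CPM on a log axis, uninjured library in blue and NaOH-injured library in red, with 95% Poisson intervals; genes with no UMI in a library have no point. Tkt shows the widest downward gap in both classes, and Slc16a3 the widest upward gap in epithelium.

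At the entry of the pathway, Slc2a1 (the glucose transporter GLUT1) stood at 58.0 CPM (56.2 to 59.7) in uninjured and 82.4 CPM (80.5 to 84.4) in injured epithelium, a ratio of 1.42. Hk2, the hexokinase with most of the hexokinase UMIs of this class, went the other way, at 132 CPM (129 to 135) and 113 CPM (110.3 to 115). Neither reached the limit. Hk1 stood at 10.1 and 11.6 CPM. The glucose isomerase Gpi1 stood at 100.6 and 180.1 CPM, a ratio of 1.79. Slc2a3 (GLUT3), Hk3 and Eno2 were near 0, with at most 18 UMIs in either library, and Hk3 and Eno2 were not measured.

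Phosphofructokinase, which commits sugar to glycolysis, differed between the libraries in its isozymes. Pfkl stood at 17.3 CPM (16.4 to 18.3) uninjured and 48.7 CPM (47.2 to 50.2) injured, 2.81-fold higher (2.64 to 3.0). Pfkp stood at 5.45 CPM (4.93 to 6.01) and 23.4 CPM (22.3 to 24.5), 4.29-fold higher (3.85 to 4.80). The muscle-type gene Pfkm stood at 6.75 and 3.67 CPM, short of the limit. As a share of the UMIs of the 3 genes, Pfkm made up 22.9% (21.1 to 24.7, exact binomial) uninjured and 4.85% (4.32 to 5.42) injured, while Pfkp made up 18.5% (16.9 to 20.2) and 30.9% (29.7 to 32.0). Of the bifunctional enzymes that set the level of the activator fructose 2,6-bisphosphate, Pfkfb3 stood at 17.6 and 21.1 CPM and Pfkfb4 at 5.15 and 2.83 CPM. These values were below the limit in each direction.

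The enzymes from aldolase to pyruvate kinase were all above their uninjured level, with ratios from 1.12 to 2.29 in the 8 measured genes. Pgk1, which makes the first ATP of the pathway, stood at 122 CPM (119 to 124) uninjured and 279 CPM (275 to 282) injured and was the only one past the limit, 2.29-fold higher (2.23 to 2.34). Gapdh stood at 615 and 1105 CPM (ratio 1.80), Tpi1 at 122 and 227 CPM (1.87), Aldoa at 222 and 385 CPM (1.73) and pyruvate kinase Pkm at 309 and 509 CPM (1.65). Pgam1, Eno1 and Aldoc had ratios of 1.40, 1.43 and 1.12. Under a 1.5-fold limit 11 members would be higher in place of 5, and the share of all genes at that limit is not given here.

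Lactate genes followed. Ldha, the main lactate dehydrogenase gene of this class, stood at 372 and 556 CPM (1.49), and Ldhb at 15.2 and 29.8 CPM, a ratio of 1.96 just under the limit. Slc16a1 (the lactate transporter MCT1) stood at 2.80 CPM (2.43 to 3.21, 206 UMIs) and 13.0 CPM (12.2 to 13.8, 1053 UMIs), 4.66-fold higher (4.01 to 5.43). Slc16a3 (MCT4, a transporter adapted to lactate export) had 10 UMIs in 5715 uninjured cells, 0.136 CPM (0.0651 to 0.250), and 558 UMIs in 5789 injured cells, 6.90 CPM (6.34 to 7.50), 50.8-fold higher (27.4 to 107). It made up 4.63% (2.24 to 8.35) of the UMIs of the pair uninjured and 34.6% (32.3 to 37.0) injured. On the mitochondrial side, Pdk1, a kinase that shuts pyruvate dehydrogenase, stood at 19.2 and 14.5 CPM and the dehydrogenase subunit Pdha1 at 49.3 and 63.6 CPM.

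Neutrophil-like cells, almost absent from the uninjured library, carried Slc16a3 at 284 CPM, and the 8 neutrophil markers summed to 26.9 CPM in uninjured and 118 CPM in injured epithelium, with 2 and 0 of them at 0. The injured epithelial level of Slc16a3 was 2.43% of the neutrophil level, whereas S100a8 stood at 0.0980%, S100a9 at 0.244%, Csf3r at 0.110% and Hk3 at 0.116% of theirs. Within the epithelium, cluster 6 held Slc16a3 at 6.63% of the neutrophil level and S100a9 at 0.111%. In the small injured clusters this did not hold for each gene. Cluster 19 (67 cells) held Slc16a3 at 0.877%, above S100a8 at 0.143% and Csf3r at 0.168%. It lay below S100a9 at 3.28% and the decoy receptor gene Il1r2 at 21.6%. Cluster 10 (53 cells) had no Slc16a3 UMI and Csf3r at 0.636%. The share of injured epithelial cells with a Slc16a3 UMI was 7.70% at a median of 11666 UMIs, against 4.27% of injured vascular endothelial-like cells at a median of 6676. With every cell thinned to 1000 UMIs, which left out 44 and 5 cells, these shares were 0.783% (0.572 to 1.05) and 0.485% (0.0123 to 2.67), not distinguishable at that depth.

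In the pentose phosphate pathway 1 gene differed by far more than the others. Tkt had 329336 UMIs in uninjured epithelium, 4473 CPM (4458 to 4488), and 48222 UMIs in injured epithelium, 596 CPM (591 to 602), 7.50-fold lower (7.43 to 7.57). Of uninjured cells 98.7% and of injured cells 96.5% held at least 1 Tkt UMI, and thinned to 1000 UMIs the shares were 93.3% (92.6 to 93.9) and 43.7% (42.4 to 45.0). The median per-cell level was 4521 and 555 CPM, so the lower sum was shared across the cells and did not come from a few of them. The 10th percentile of uninjured cells, 1255 CPM, lay above the 90th percentile of injured cells, 1149 CPM.

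Transaldolase, the partner of transketolase in the non-oxidative branch, showed no difference of that size: Taldo1 stood at 318 CPM (314 to 322) and 281 CPM (277 to 285). Of the oxidative enzymes, G6pdx (glucose-6-phosphate dehydrogenase) stood at 52.3 and 35.5 CPM, a ratio of 0.678 (0.646 to 0.712), Pgls at 264 and 251 CPM and Pgd at 45.8 and 61.6 CPM. The isomerase Rpia had a ratio of 0.862 and the epimerase Rpe stood at 13.0 and 13.5 CPM. None of these 6 genes reached the limit.

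**Figure D2:**
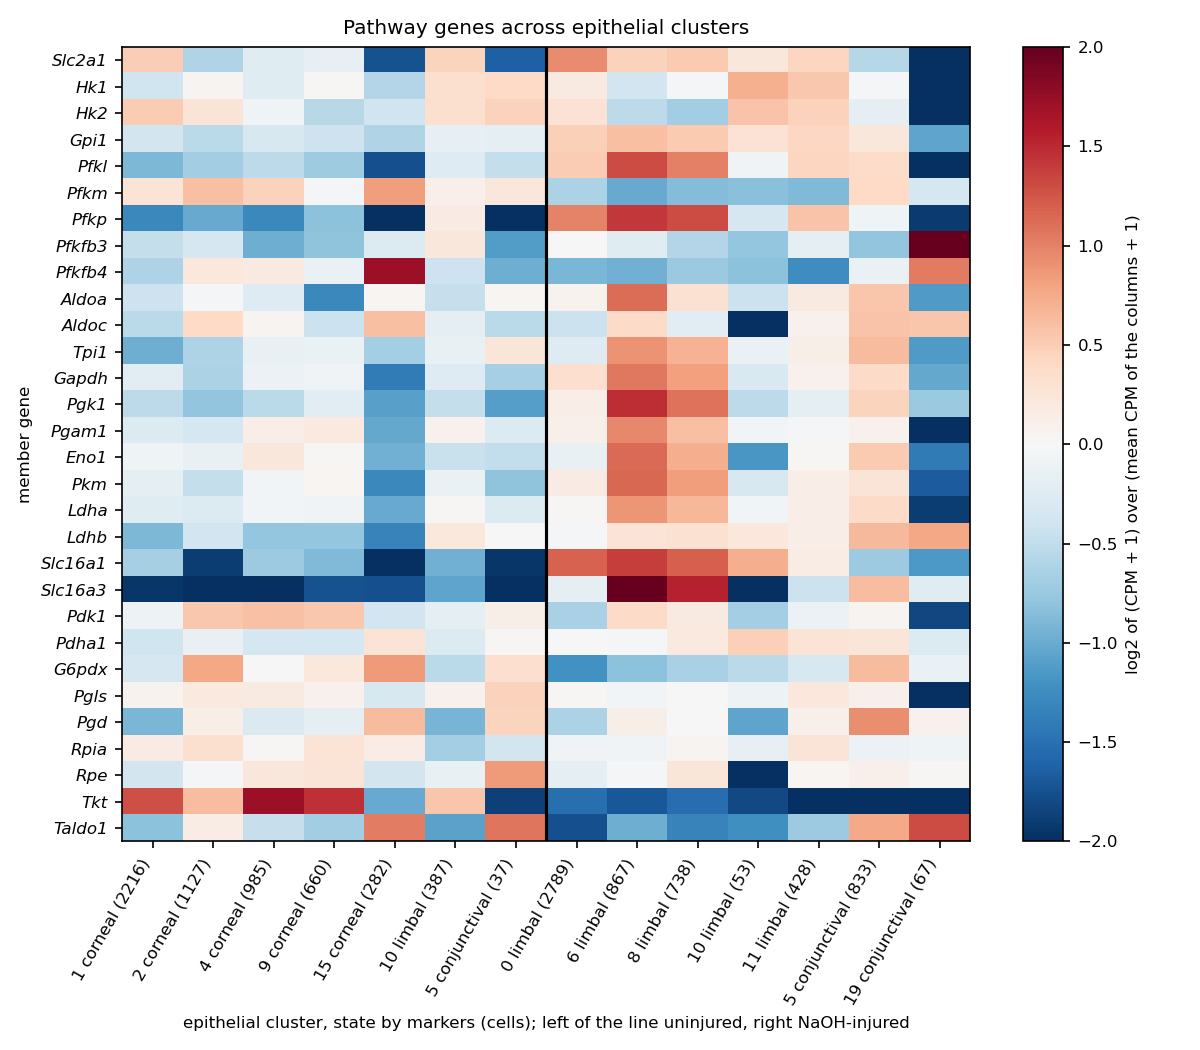
Members with at least 500 UMIs across the epithelial clusters with at least 30 cells of a library; colour is log2 of (CPM + 1) over (the mean CPM of the columns + 1), uninjured left and NaOH-injured right of the line. Tkt is high in the uninjured corneal clusters, and the lower glycolytic genes are highest in injured clusters 6 and 8.

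Levels differed widely within each library. Cluster 6, 867 injured cells and no uninjured cells with Inhba, Wfdc18 and Actn1 among its leading genes, had the highest level of Gapdh (1591 CPM), Pgk1 (505 CPM), Aldoa (622 CPM), Pkm (813 CPM), Ldha (790 CPM) and Slc16a3 (18.9 CPM) among the epithelial clusters. The cycling injured cluster 8 came next for Gapdh (1353 CPM), Pgk1 (383 CPM) and Slc16a3 (11.0 CPM). In cluster 0, the largest injured cluster with 2789 cells, Pgk1 stood at 197 CPM and Slc16a3 at 2.64 CPM. In the cycling uninjured cluster 9, Pgk1 stood at 153 CPM and Slc16a3 at 0.239 CPM, below both values of cluster 8. The injured epithelial value is thus an average over clusters that differ 2-fold and more in these genes.

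Clusters with the conjunctival or most differentiated markers had another profile. In uninjured cluster 15, whose leading genes include the late cornified envelope genes Lce3a and Lce3f, Gapdh stood at 289 CPM, Slc2a1 at 16.7 CPM and Tkt at 1013 CPM, all at or near the bottom of the uninjured clusters, while Taldo1 stood at 782 CPM, G6pdx at 82.5 CPM and Pgd at 86.7 CPM, near the top. In injured cluster 19, with 67 cells, Taldo1 reached 947 CPM and Slc2a1 was 13.7 CPM, and Hk2 was 9.98 CPM against 71.1 to 173 CPM in the other injured clusters. Pfkfb3 was 114 CPM there, against 11.1 to 29.6 CPM in every other epithelial cluster. In cluster 5, Taldo1 was high in both libraries, at 808 CPM uninjured and 649 CPM injured.

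Tkt ranged from 561 CPM (cluster 5) and 1013 CPM (cluster 15) to 6715 CPM (cluster 4) among uninjured epithelial clusters, and from 91.1 CPM (cluster 19) to 719 CPM (cluster 0) among injured ones. Apart from the 37 uninjured cells of cluster 5, each uninjured cluster lay above each injured cluster. The order of uninjured clusters by Tkt did not follow Krt12, the cornea-specific keratin: Krt12 was 29441 CPM in cluster 2 and 27328 CPM in cluster 15, above the 21601 CPM of cluster 4. Tkt is among the 10 leading genes of cluster 4 although it was left out of the clustering.

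Of the epithelial clusters, 5 and 10 held at least 30 cells of each library. In cluster 5 (37 uninjured and 833 injured cells) 7 of 30 measured members were higher (5.04% of all 11279 measured genes) and 0 were lower (5.3%): Slc2a1, Pfkp, Aldoc, Gapdh, Pgk1, Eno1 and Pkm. The median log2 ratio in cluster 5 was 0.41 over the measured members and -0.14 over all genes. With 37 uninjured cells, genes with few UMIs could rarely be called higher, which limits the comparison with the share of all genes. Pgk1 stood there at 83.5 and 245 CPM, 2.94-fold higher (2.36 to 3.69). Tkt in the same cluster was 561 and 383 CPM, a ratio of 0.683 (0.627 to 0.746) that misses the limit. In the limbal-like cluster 10 (387 and 53 cells) 0 of 27 members were higher (3.43% of 8941 genes) and 2 were lower (3.59%), Tkt at 3018 and 583 CPM, 5.18-fold lower (4.56 to 5.90), and Aldoc with 58 and 1 UMIs. Pgk1 in cluster 10 stood at 129 and 126 CPM. Higher glycolysis members, Pgk1 among them, were therefore called in 1 of the shared epithelial clusters and not in the other. The difference between these clusters was not tested. The lactate transporters were called in neither: Slc16a1 had 1 and 74 UMIs and Slc16a3 had 0 and 109 UMIs in cluster 5, and both were unmeasured in cluster 10.

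In injured stroma 8 glycolysis and lactate genes lay past the limit upward, from Hk2 and Pfkfb3 to both lactate transporters, and Tkt was again far lower. The class was nearly all cluster 12 in the uninjured library (421 cells, Kera leading) and cluster 7 in the injured library (801 cells, with Mmp3, Saa3 and Chil1 leading). Depth also differed, with a median of 5715 UMIs per uninjured and 12002.5 per injured stromal cell. Of 31 measured members 9 were higher (9.85% of all 11967 measured genes) and 1 was lower (9.33%). The median log2 ratio was 0.51 (-0.04 to 1.16) over the 24 glycolysis, lactate and pyruvate members and 0.11 (-3.17 to 1.08) over the 7 pentose phosphate members, against 0.01 for all genes.

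Upstream, Hk2 stood at 92.5 CPM (81.1 to 105) in uninjured and 201 CPM (192 to 210.0) in injured stroma, 2.17-fold higher (1.90 to 2.50), unlike in epithelium, where it was not called; with doublets kept it was under the limit, at a log2 ratio of 0.97. Pfkfb3 stood at 23.2 CPM (17.7 to 29.9) and 83.9 CPM (78.3 to 89.7), 3.61-fold higher (2.78 to 4.78), and its share of the UMIs of the bifunctional pair was 66.7% (55.9 to 76.3) and 93.5% (91.7 to 95.02). Pfkp had 6 and 88 UMIs, 2.32 and 8.70 CPM, and was 3.75-fold higher (1.65 to 10.5), from levels at most 12.8% of that in the class where Pfkp is highest. This call was lost in 3 of 16 alternatives, among them thinning to 1000 UMIs and a minimum of 100 UMIs, which left it unmeasured. Pfkl stood at 29.4 and 30.3 CPM, without the difference it had in epithelium. Slc2a1, Hk1 and Gpi1 had ratios of 1.33, 1.21 and 0.986.

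Downstream, Pgk1 stood at 100.6 CPM (88.7 to 114) and 325 CPM (314 to 337), 3.24-fold higher (2.85 to 3.69), and Eno1 at 60.4 CPM (51.3 to 70.6) and 189.7 CPM (181 to 198), 3.14-fold higher (2.67 to 3.72). Pkm at 416 and 827 CPM (1.99) and Gapdh at 453 and 884 CPM (1.95) lay just under the limit. Aldoa (402 and 382 CPM) and Tpi1 (239 and 270.2 CPM) showed no such gap. The neuronal enolase gene Eno2 made up 14.8% (9.95 to 20.7) of enolase UMIs uninjured and 3.18% (2.45 to 4.05) injured.

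Ldha stood at 272 CPM (252 to 292) and 607 CPM (592 to 622), 2.23-fold higher (2.07 to 2.42); it was under the limit with each cell weighted alike (log2 ratio 0.95) and with cells thinned to 1000 UMIs (0.70). Ldhb stood at 39.1 and 27.4 CPM, and its share of lactate dehydrogenase UMIs was 12.6% (10.4 to 15.1) and 4.32% (3.83 to 4.84). Slc16a1 stood at 9.29 CPM (5.95 to 13.8) and 51.7 CPM (47.3 to 56.3), 5.57-fold higher (3.70 to 8.77). Slc16a3 stood at 6.58 CPM (3.83 to 10.5) and 30.04 CPM (26.8 to 33.6), 4.57-fold higher (2.81 to 7.94), a call lost in 2 of 16 alternatives: thinning to 1000 UMIs, which left too few to measure it, and leaving out members under 25% of their highest class level. The injured stromal level of Slc16a3 was 10.6% of the neutrophil level, against 0.172% for S100a9 and 0.199% for Csf3r.

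In the pentose phosphate pathway, Tkt stood at 1519 CPM (1472 to 1568, 3927 UMIs) in uninjured and 169 CPM (161 to 177, 1712 UMIs) in injured stroma, 8.98-fold lower (8.48 to 9.51). G6pdx, with 20 and 166 UMIs, stood at 7.74 and 16.4 CPM and was 2.12-fold higher (1.33 to 3.56), opposite in direction to its epithelial ratio; this call was lost in 4 of 16 alternatives. Taldo1 stood at 168 and 105 CPM, Pgd at 27.9 and 47.7 CPM, Pgls at 148 and 160.1 CPM, Rpia at 5.03 and 8.20 CPM and Rpe at 10.8 and 9.29 CPM. None of these 5 reached the limit.

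Epithelial transcripts were present in the uninjured stromal cells, where Krt12 stood at 1044 CPM, 5.32% of its epithelial level. Tkt stood at 34.0% of its epithelial level in the same cells. In the other uninjured classes Tkt and Krt12 stood at 41.8% and 34.5% of their epithelial level (Schwann-like), 11.7% and 12.7% (mural-like), 11.5% and 22.9% (vascular endothelial-like) and 20.4% and 13.0% (macrophage or monocyte-like). Other keratins gave other shares. In mural-like cells Krt5, Krt14 and Krt15 stood at 10.9% to 12.1% of their epithelial level, around the share of Tkt. In vascular endothelial-like cells Krt15 stood at 5.26% and Krt5 at 22.1%, on either side of Tkt, and in Schwann-like cells Krt15 stood at 18.2% and Krt14 at 49.9%. In stroma the 4 keratins stood at 4.98% to 5.98%, each below Tkt. The epithelial marker Aldh3a1 differed from the keratins there, at 35.5% of its epithelial level, beside Tkt at 34.0%. Aldh3a1 stood at 11.9% in mural-like, 20.8% in macrophage or monocyte-like, 14.4% in vascular endothelial-like and 49.8% in Schwann-like cells. The part of epithelial RNA in the stromal Tkt and Aldh3a1 values was not tested. Over all uninjured stromal cells the 13 epithelial markers summed to 5476 CPM, and over the injured ones to 1308 CPM, with 0 of 13 at 0 in each. Aldh3a1 alone made up 3664 CPM of the uninjured sum and 266 CPM of the injured sum.

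**Figure D3:**
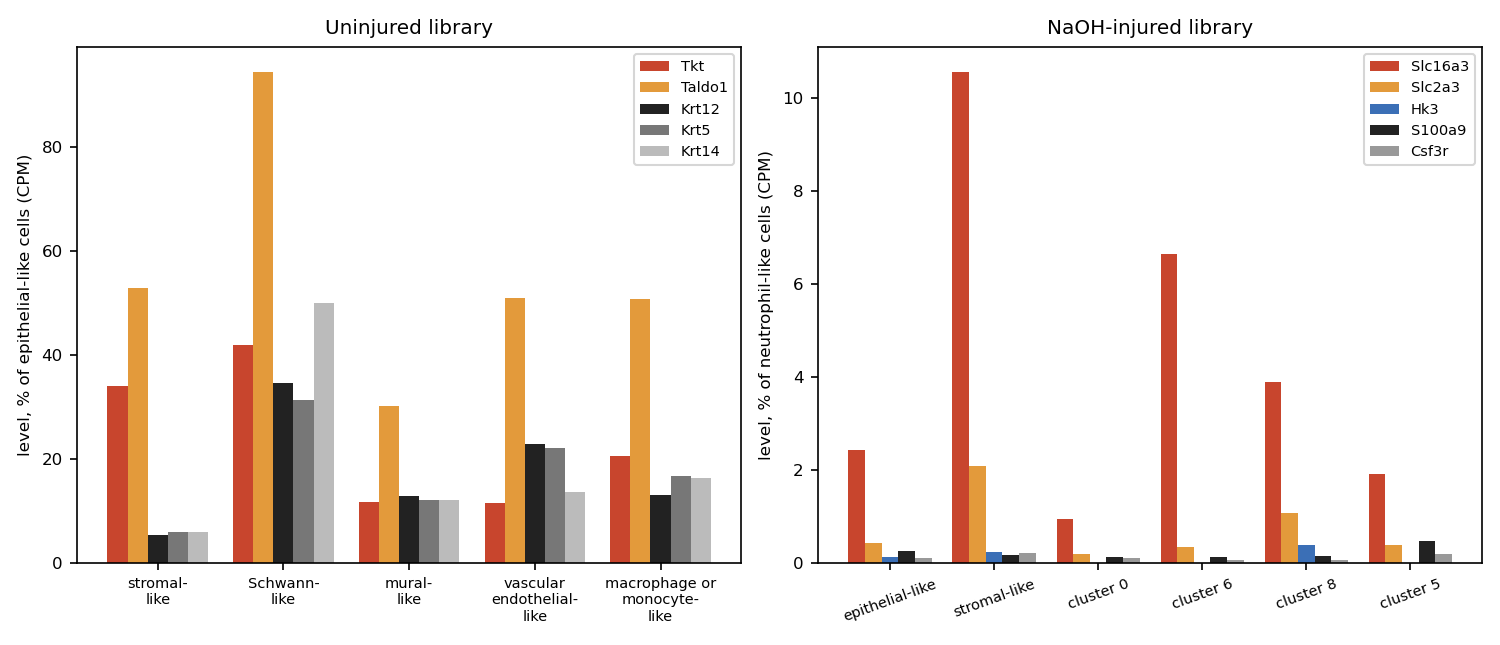
Left, level of Tkt, Taldo1 and 3 keratins in uninjured non-epithelial classes as a percentage of the uninjured epithelial level; right, level of Slc16a3, Slc2a3, Hk3 and the neutrophil genes S100a9 and Csf3r in injured epithelium, stroma and epithelial clusters as a percentage of the neutrophil-like level. In stroma Tkt (34.0%) stands above Krt12 (5.32%), and Slc16a3 stands above S100a9 and Csf3r in the injured classes and the clusters shown (0, 5, 6 and 8). The epithelial marker Aldh3a1, at 35.5% in uninjured stroma, is not drawn. Clusters 10 and 19 are not drawn: cluster 10 had no Slc16a3 UMI, and in cluster 19 Slc16a3 stood above Csf3r and below S100a9.

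At a finer clustering (Leiden resolution 2, examined after the data were seen) the stromal cells split into 4 groups, and the glycolytic transcripts were concentrated in 1 of them. Sub-cluster 14, with 404 injured cells and the contractile and matrix genes Tagln, Acta2 and Spp1 leading, held Pgk1 at 449 CPM, Gapdh at 1128 CPM, Pkm at 1043 CPM, Ldha at 752 CPM, Eno1 at 264 CPM and Slc16a3 at 45.5 CPM. Sub-cluster 12, with 397 injured cells and Cxcl14 at 4151 CPM, held Pgk1 at 140 CPM, Gapdh at 517 CPM, Pkm at 503 CPM, Ldha at 387 CPM, Eno1 at 77.7 CPM and Slc16a3 at 6.70 CPM. Pgk1 and Eno1 are themselves among the 8 leading genes of sub-cluster 14, so these values describe it and support nothing further. Hk2 did not follow this split, at 198 and 205 CPM, nor did Slc16a1, at 43.1 and 64.8 CPM, or Pfkfb3, at 70.0 and 105 CPM.

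The uninjured stromal groups differed in Tkt, and also in other members such as Pkm and Pgls. Sub-cluster 17, with 341 cells and Kera at 4270.1 CPM, held Tkt at 1746 CPM (1691 to 1803), and sub-cluster 27, with 80 cells and Kera at 40.2 CPM, held it at 396 CPM (330.0 to 470.3). Krt12 did not follow Tkt here, at 984 CPM (942 to 1027) and 1193 CPM (1077 to 1318). The 38 uninjured cells of sub-cluster 12 held Tkt at 398 CPM (289 to 535) and Krt12 at 1784 CPM (1543 to 2051), the highest Krt12 of these groups. The injured sub-clusters held it at 136 CPM (125 to 148) and 191 CPM (180.3 to 202), with Krt12 at 0.496 and 0.822 CPM. The 8.98-fold difference of the class thus sets injured cells mainly against Kera-high uninjured cells.

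Within cluster 7, where 38 uninjured cells met 801 injured cells, 8 of 30 measured members were higher (3.05% of 11483 genes) and 2 were lower (5.39%). The median log2 ratio was 0.13 over the measured members and -0.91 over all genes. With 38 uninjured cells and counts under 3 set to 3, genes with few UMIs could hardly be called higher. The share of all genes is therefore not a like measure for members with many UMIs. Hk2 had 3 UMIs in the uninjured cells and stood at 27.2 and 201 CPM, 7.41-fold (2.53 to 36.0). Pfkfb3, Gapdh, Pgk1, Pgam1, Eno1, Pkm and Ldha were the other 7, with ratios from 2.25 to 3.26. Slc16a1 (2 and 523 UMIs) and Slc16a3 (0 and 304 UMIs) were not called here. Tkt stood at 398 and 169 CPM, 2.35-fold lower (1.70 to 3.17), beside Krt12 at 1784 and 0.692 CPM, and the part of epithelial RNA in this value was not tested. Ldhb stood at 72.4 and 27.4 CPM. The uninjured side rests on few cells and, for Hk2 and Pfkfb3, on 3 UMIs each.

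**Figure D4:**
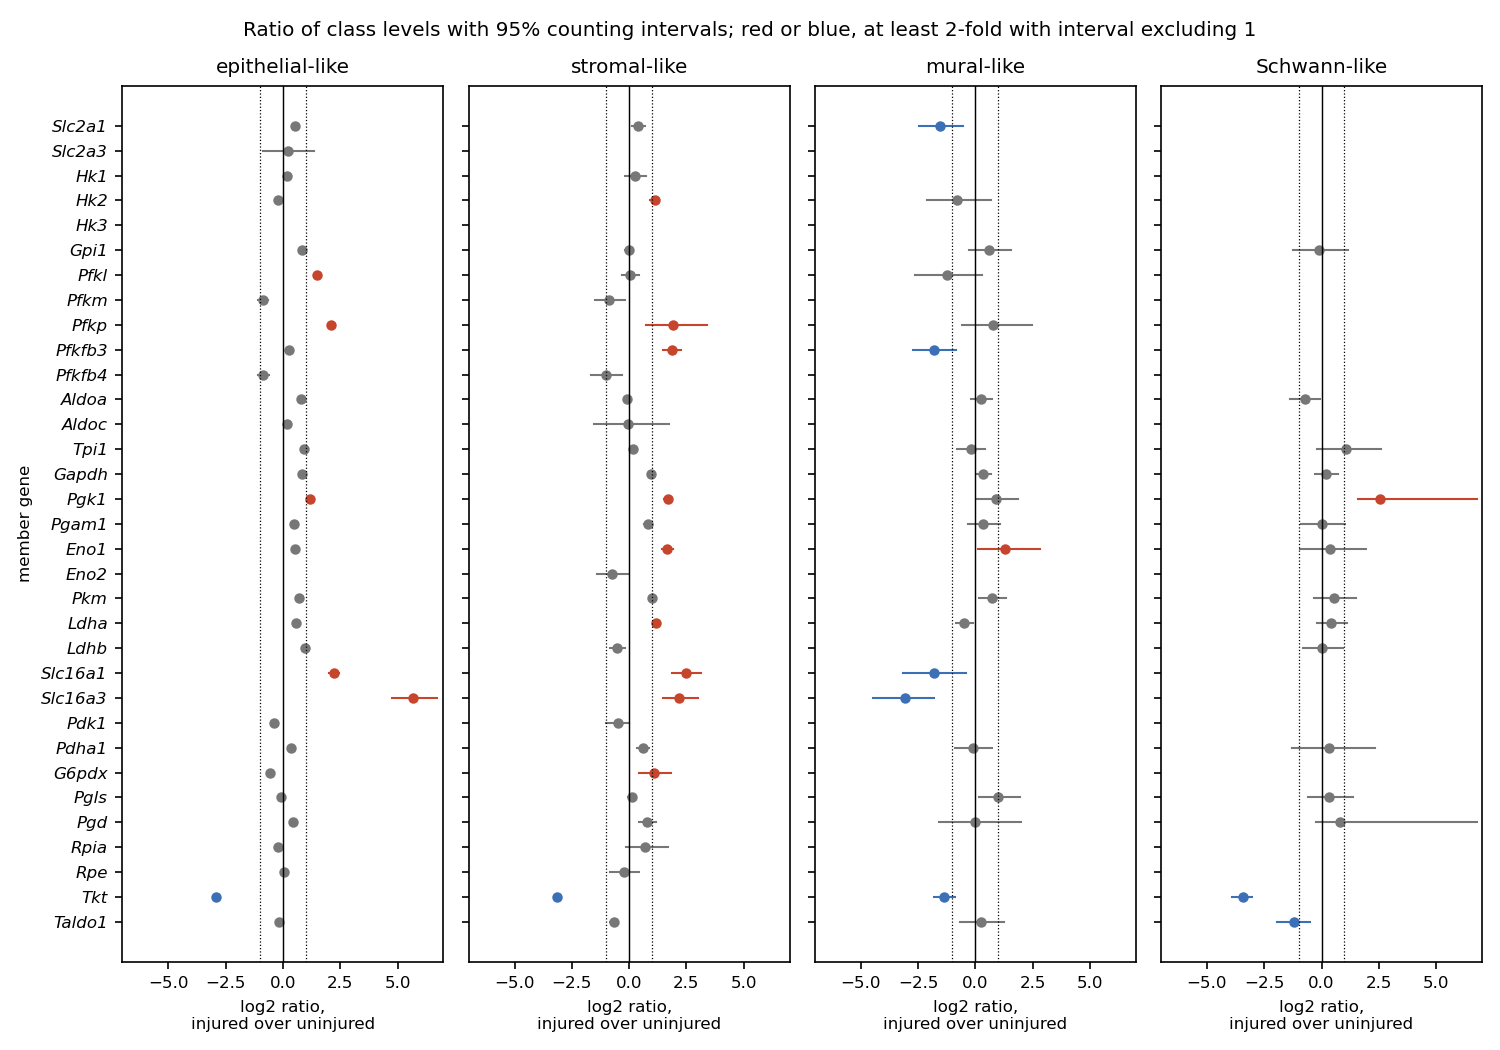
Log2 ratio of the injured over the uninjured level for each measured member in 4 classes, with 95% counting intervals; red and blue mark members called higher and lower, dotted lines mark 2-fold, and intervals running past the axis are drawn to its edge. Tkt is called lower in all 4 classes, while Slc16a1 and Slc16a3 lie on opposite sides in stromal-like and mural-like cells.

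In mural-like cells, the pericytes and smooth muscle of vessels, Slc16a1, Slc16a3 and Pfkfb3 were lower where they were higher in stroma, while Eno1 was higher and Tkt lower in both. The differences between the classes were not tested. Of 21 measured members 1 was higher (9.1% of 4580 genes) and 5 were lower (8.47%). Slc16a3 had 15 UMIs in 58 uninjured and 9 UMIs in 86 injured cells, 119 CPM (66.7 to 197) and 14.2 CPM (6.48 to 26.9), 8.42-fold lower (3.45 to 21.8). Pfkfb3 stood at 143 and 40.9 CPM, Slc16a1 at 71.5 and 20.5 CPM and Slc2a1 at 127 and 44.1 CPM, each from 18 UMIs or fewer in the uninjured cells. Tkt stood at 525 and 206 CPM. Eno1 was the member called higher, at 47.7 and 118 CPM. With cells thinned to 1000 UMIs, or at least 100 UMIs required, 1 of the 5 lower calls was left. Depth was lower in the uninjured cells (median 2094 against 6021 UMIs). The epithelial markers summed to 5318 and 1267 CPM, with 3 and 1 of 13 at 0, and the neutrophil markers to 15.9 and 416 CPM, with 6 and 1 of 8 at 0. The part of these RNAs and of depth in the ratios was not tested.

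In Schwann-like cells, the glia of corneal nerves, 15 members were measured, 1 was higher (10.3% of 3548 genes) and 2 were lower (5.58%). Tkt stood at 1872 CPM (1609 to 2165) and 172 CPM (131 to 221), and Taldo1 at 299.9 and 129 CPM. Pgk1 had 1 UMI in 54 uninjured and 63 UMIs in 97 injured cells, with a ratio interval of 3.01 to 699. Ldhb was higher in these cells than in any other class, at 165 CPM uninjured and 169 CPM injured. The 13 epithelial markers summed to 16288 CPM in the uninjured Schwann-like cells and 2934 CPM in the injured ones, with 2 and 0 of them at 0, and the part of epithelial RNA in the Tkt and Taldo1 values was not tested.

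Classes with fewer than 50 cells in a library are given as values, with no count of members called. In vascular endothelial-like cells, 44 uninjured and 211 injured, Gapdh stood at 568 and 1148 CPM, Pkm at 323 and 733 CPM and Eno1 at 47.9 and 134 CPM. Pgls stood at 77.8 and 199.5 CPM, but its log2 ratio was -0.45 with cells thinned to 1000 UMIs. Pfkfb3 stood at 138 and 63.1 CPM, Hk2 at 41.9 and 11.2 CPM, Rpia at 29.9 and 7.34 CPM and Tkt at 514 and 144 CPM. The lymphatic markers in this class summed to 35.9 CPM uninjured and 1413 CPM injured, with 2 and 0 of 5 at 0, and to 65.4 and 315 CPM in stroma. The mural markers summed to 520.4 and 19.6 CPM (1 and 2 of 8 at 0), the dendritic markers to 281 and 36.7 CPM (3 and 3 of 8 at 0) and the epithelial markers to 8344 and 1065 CPM (2 and 0 of 13 at 0). The part of these in the values was not tested.

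In macrophage or monocyte-like cells, 346 injured cells are set against only 15 uninjured ones. Of the 22 measured glycolysis, lactate and pyruvate members, 11 had ratios above 1 and 11 below 1. Their median log2 ratio was -0.04, against -0.75 for all genes. Those past 2-fold upward lay between aldolase and lactate dehydrogenase: Aldoa (161 and 600.0 CPM), Tpi1 (53.7 and 299.98 CPM), Gapdh (448 and 1249.6 CPM), Pgk1 (107 and 439 CPM), Pgam1 (107 and 321 CPM), Eno1 (1 and 624 UMIs), Pkm (161 and 849 CPM) and Ldha (143 and 500.5 CPM). Each of these had at most 25 UMIs in the uninjured cells, and the uninjured level of Eno1, 17.9 CPM (0.453 to 99.7), rests on 1. Tkt stood at 913 and 186 CPM, a log2 ratio of -2.29 that was -1.04 at Leiden resolution 2. The dendritic markers summed to 36324 and 9138 CPM (3 and 0 of 8 at 0) and the macrophage markers to 15951 and 16825 CPM (0 of 10 at 0 in each). The mast cell markers summed to 2184 and 7.33 CPM (2 and 4 of 5 at 0), the neutrophil markers to 53.7 and 1096 CPM (6 and 1 of 8 at 0) and the epithelial markers to 6660 and 1406 CPM (4 and 0 of 13 at 0). The part of these in the values was not tested. Tkt was called lower in each of the 4 classes with at least 50 cells per library, and its injured level was also the lower one in these 2. The mural-like call was lost where members under 25% of their highest class level were left out.

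Neutrophil-like cells could be described in the injured library only, where 1017 cells had a median of 852 UMIs. Among the named classes with at least 50 cells in that library they held the highest level of Slc16a3 (284 CPM), Slc2a3 (52.2 CPM), Slc2a1 (145 CPM), Hk3 (42.6 CPM), Pfkfb4 (46.9 CPM) and Pkm (953 CPM). Hk3 was otherwise found mainly in macrophage or monocyte-like cells (29.8 CPM) and had 4 UMIs in all injured epithelial cells. With at least 500 genes and 1000 UMIs required per cell, 236 neutrophil-like cells remained and Slc16a3 stood at 227 CPM, Hk3 at 45.4 CPM and Slc2a3 at 29.2 CPM.

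Isozyme shares differed between the blood-derived classes and the injured epithelium and stroma. Of hexokinase UMIs, Hk2 made up 90.7% (90.1 to 91.2) in injured epithelium and 89.7% (88.4 to 90.9) in injured stroma, but 33.0% (24.1 to 43.0) in neutrophil-like and 37.1% (29.97 to 44.6) in macrophage or monocyte-like cells, where Hk3 made up 38.8% (29.4 to 48.9) and 32.0% (25.2 to 39.4). Pfkp made up 71.3% (60.6 to 80.5) and 64.7% (57.1 to 71.8) of phosphofructokinase UMIs in those 2 classes, against 30.9% in injured epithelium and 19.0% (15.6 to 22.9) in injured stroma. Vessel and nerve cells did not follow epithelium and stroma: Pfkp made up 72.9% (59.7 to 83.6) in injured mural-like, 57.1% (34.02 to 78.2) in Schwann-like and 53.7% (46.03 to 61.3) in vascular endothelial-like cells, and Hk2 made up 15.6% (10.2 to 22.5) of hexokinase UMIs in the last. Hk3 had no UMI in the injured mural-like and vascular endothelial-like cells. Slc16a3 made up 97.1% (94.3 to 98.7) of the lactate transporter pair in neutrophil-like and 67.4% (58.6 to 75.4) in macrophage or monocyte-like cells, and 36.8% (33.5 to 40.1) in injured stroma. These shares are of counted UMIs and not of enzyme.

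**Figure D5:**
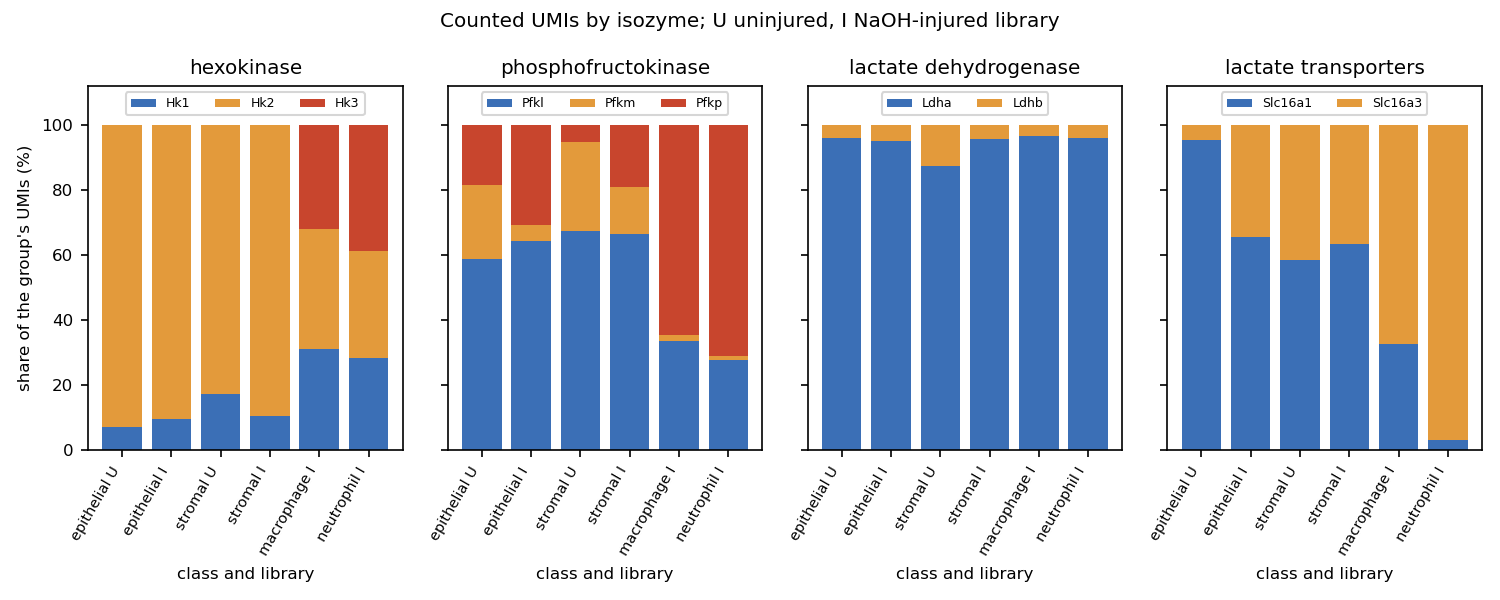
Share of each gene in the UMIs of its isozyme group, in percent, for epithelial and stromal cells of both libraries (U uninjured, I NaOH-injured) and for macrophage or monocyte-like and neutrophil-like cells of the injured library. Hk3 takes 38.8% of hexokinase UMIs in neutrophil-like and 32.0% in macrophage or monocyte-like cells, and Pfkm takes 22.9% in uninjured and 4.85% in injured epithelium.

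Genes around these pathways were counted from 5 further lists. Of 33 measured other glycolysis, gluconeogenesis and pyruvate genes in epithelium 3 were higher and 6 lower (13.9% and 11.4% of all genes), with a median log2 ratio of 0.00. Emb (embigin, an accessory protein of monocarboxylate transporters) stood at 23.5 and 152 CPM, 6.47-fold higher, and Mpc2 (a subunit of the carrier that takes pyruvate into mitochondria) at 505 and 213 CPM, 2.38-fold lower. In stroma 6 of 25 were higher and 1 lower (9.85% and 9.33% of all genes). There Gpd2, the mitochondrial glycerol phosphate dehydrogenase, stood at 12.4 and 26.6 CPM. Of 14 other pentose phosphate and NADPH genes in each of epithelium and stroma 2 were higher and 1 lower. The shares of all genes were 13.9% and 11.4% in epithelium and 9.85% and 9.33% in stroma. In stroma H6pd, which makes NADPH inside the endoplasmic reticulum, stood at 9.29 and 21.0 CPM.

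Regulators and textbook targets of hypoxia-inducible factor outside glycolysis lay on both sides. In epithelium 7 of 21 measured genes were higher and 2 lower (13.9% and 11.4% of all genes). Ero1l, an oxidase of the endoplasmic reticulum, stood at 12.3 and 32.2 CPM, while Egln3, a prolyl hydroxylase that marks the factor for destruction, stood at 181 and 43.1 CPM and Adm (adrenomedullin) at 256 and 66.4 CPM, both lower. In stroma 0 of 20 were higher and 2 lower (9.85% and 9.33%), and in mural-like cells 0 of 11 were higher and 4 lower (9.1% and 8.47%). Adm was also lower in mural-like (71.5 and 18.9 CPM), Schwann-like (196 and 17.2 CPM) and vascular endothelial-like cells (95.7 and 16.1 CPM). The uninjured values of these classes rest on 9, 19 and 16 UMIs. Uninjured epithelium held the highest Adm level, and the part of epithelial RNA in these values was not tested.

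Among genes of the citric acid cycle 1 of 18 was higher and 0 lower in epithelium (13.9% and 11.4% of all genes), namely Sdhc, a succinate dehydrogenase subunit, at 22.0 and 50.03 CPM. In stroma 0 of 18 were called in either direction, and in mural-like cells 2 of 17 were higher (9.1% of all genes) and 0 lower. The list's median log2 ratio was 0.24 in epithelium, 0.22 in stroma, 0.43 in mural-like and 0.54 in vascular endothelial-like cells, against 0.02, 0.01, 0.24 and -0.07 for all genes. Glycogen genes included some far lower in injured epithelium, where 2 of 14 were higher and 3 lower (13.9% and 11.4% of all genes). The liver-type glycogen phosphorylase Pygl, which frees glucose units from glycogen, stood at 57.8 CPM (56.1 to 59.6) uninjured and 0.668 CPM (0.502 to 0.871) injured, 86.6-fold lower. Gyg, the primer protein of glycogen, stood at 360.3 CPM (356 to 365) and 23.8 CPM (22.7 to 24.8), 15.2-fold lower.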

How the data were processed

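Droplet single-cell libraries of 1 uninjured and 1 NaOH-injured wild-type mouse were used. The deposited matrices hold raw UMI counts per gene and cell, made by the authors with Cell Ranger. Its version, 7.0.1, comes from the file headers and the genome build, GRCm38, from the submitters' processing notes. The sources used here do not give the 10x chemistry, the annotation release or any correction for free RNA. Of 7490 and 9399 barcodes, 7150 and 9003 had at least 300 genes, 500 UMIs and no more than 20% of UMIs from mitochondrial genes. Scrublet's own threshold marked 0.448% and 0.0222% of them and was taken to have failed, so the highest scores were removed at an assumed 0.8% per 1000 barcodes (407 and 635 cells).

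Clusters came from scanpy 1.11.5 (2000 variable genes without the members, 30 components, 20 neighbours, Leiden resolution 1, no batch correction) and were named from listed markers, with the ending -like. Counts were summed per class and library. Ratios carry exact conditional binomial intervals, and a count under 3 was set to 3 for the ratio. No test was made. Calling was tried on simulated counts. All members are reported. Of the other lists, up to 3 genes per class and direction are named by ratio, among those called, with at least 20 CPM and 25% of the level in their highest class. Genes singled out beside these were chosen after their values were seen. The members and lists were chosen with earlier results of these data known. Aldoa has a second entry with 2 UMIs, left out. Reads shared with near copies cannot be told apart; of these copies Eno1b had 141 and 282 UMIs and the other measured copies of members at most 4. The alternatives varied filters, doublets, clustering, weighting, depth, scaling, the fold limit and free RNA.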

Additional observations from a re-analysis of the deposited data

Results flagged for a closer look

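The lactate transporters Slc16a1 and Slc16a3 and the glycolytic regulator Pfkfb3 pointed in opposite directions in different cell classes. None of these differences between classes was tested, since each value comes from 1 library per condition. Slc16a3 had an injured over uninjured ratio of 50.8 in epithelial-like and 4.57 in stromal-like cells, but 0.119 in mural-like cells. Slc16a1 had ratios of 4.66 and 5.57 in epithelial-like and stromal-like cells and 0.286 in mural-like cells. Pfkfb3 had a ratio of 3.61 in stromal-like and 0.286 in mural-like cells. The mural values rest on 15, 9 and 18 UMIs in 58 uninjured cells, and thinning the cells to 1000 UMIs or requiring 100 UMIs left these 3 mural calls unmade.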

How the results depend on the processing

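Of 16 alternatives (1 of them, counting the unnamed cluster as epithelial, chosen after seeing the data), all left Pfkl, Pfkp, Pgk1 and Tkt called in epithelium and Pfkfb3, Pgk1, Eno1, Slc16a1 and Tkt called in stroma, and none turned a call into the opposite call. The 1.5-fold limit and the absence of a UMI minimum only loosen the rule, so no call could be lost under them. Counting the unnamed cluster as epithelial could not change a call in another class. Of the ratios past 2-fold in vascular endothelial-like and macrophage or monocyte-like cells, those of Aldoa, Gapdh, Pgk1 and Pkm in the latter stayed past it in all 16 and the others in 11 to 15. The log2 ratio of Pgls in the former changed sign (-0.45 thinned). Slc16a1 and Slc16a3 in epithelium lost their calls only where members under 25% of their highest class level were left out. The comparisons within clusters 5, 7 and 10, the finer stromal groups and the further gene lists were not run under the alternatives. No paired analysis was possible because each group has 1 library.

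Counts of members called depended on the setting as follows, and the share of all genes under each setting is not given here. The stricter cell filter, equal weight per cell, centring on the median gene and leaving out the 50 most abundant genes each gave 2 lower in stroma. Equal weight per cell gave 3 lower in epithelium and 1 lower in Schwann-like cells. Thinning gave 4 lower in epithelium, and thinning or a minimum of 100 UMIs gave 0 higher and 1 lower in mural-like and in Schwann-like cells. Centring gave 0 higher in mural-like cells, and keeping doublets or leaving out mitochondrial and ribosomal genes gave 2. With no UMI minimum 4 were lower in Schwann-like cells. A 1.5-fold limit gave 11 higher and 3 lower in epithelium, 14 and 5 in stroma and 4 higher in mural-like cells, and leaving out free RNA levels gave 3 higher in epithelium.

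Median log2 ratios that changed sign were those of glycolysis members in mural-like cells (0.0243 with doublets kept, 0.27 thinned, 0.35 at 100 UMIs) and Schwann-like cells (-0.45 with no minimum), and of pentose phosphate members in mural-like cells (-0.29 with equal weight, -0.13 centred, -0.0141 with no minimum) and in stroma (-0.20 thinned, -0.0553 at 100 UMIs). The fewer genes under thinning and the 100 UMI minimum follow from their construction; for the rest the cause was not tested. Mural-like and Schwann-like values rest on 58 and 54 uninjured cells, with medians of 2094 and 1203 UMIs.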

Other observations

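A cluster of 393 uninjured and 4 injured cells stayed unnamed because it was shallow, with a median of 1224 UMIs, although epithelial markers scored highest in it. Malat1 was among its leading genes. Its uninjured cells held Hk2 at 517 CPM, against 132 CPM in the uninjured epithelial-like cells, and Rpia at 51.3 CPM, above the 9.62 to 20.3 CPM of the uninjured epithelial clusters. Gapdh stood at 158 CPM against 615 CPM, Pgam1 at 36.7 CPM against 113 CPM and Tpi1 at 38.5 CPM against 122 CPM. Tkt stood at 2501 CPM against 4473 CPM.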
